A study of Saccharomyces cerevisiae with 16 samples.

Results

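The ribosomal DNA (rDNA) of budding yeast and the 5S genes beside it were examined for H3K4me3, the trimethylated form of lysine 4 of histone H3. The region was taken as bases 450000 to 492000 of chromosome XII (reference R64, sacCer3). It holds 2 reference copies of the 37S gene (*RDN37-1* and *RDN37-2*) and 6 of the 5S gene (*RDN5-1* to *RDN5-6*). Every peak with a base inside these limits was a member, which gave 106 of the 30753 peaks in all 8 lists. The region was selected on peaks of these same libraries, among them the strongest peak of each, so the presence and the rank of its peaks are a description and carry no test.

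The libraries came from BY4741 yeast with a synthetic locus of human *HPRT1* sequence. In synHPRT1R the bases of the locus run in the opposite order. One set of strains carried synHPRT1R or synHPRT1 as a yeast artificial chromosome (YAC), and the other carried the same loci integrated on chromosome XI, with 2 libraries in each of 4 groups. YAC strains grew in SC-Leu and integrated strains in YPD, so context and medium cannot be told apart. Every strain thus carries a foreign locus, and the 8 IgG libraries were not analysed here. For synHPRT1 YAC replicate 2 the source name reads synHPRT1R, whereas title and genotype read synHPRT1, which was followed. Nothing in the rDNA differs by design between the strains.

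Yeast rDNA is a tandem array in which RNA polymerase I transcribes a long precursor of the 18S, 5.8S and 25S rRNAs, and RNA polymerase III transcribes the 5S gene from the other strand. The spacers NTS1 and NTS2 lie on the sides of the 5S gene. NTS1 holds the replication fork barrier bound by Fob1, and NTS2 holds a replication origin and borders the RNA polymerase I promoter. H3K4me3 is laid down by Set1 within the COMPASS complex and is best known at the starts of genes read by RNA polymerase II. The cell carries many more rDNA repeats than the reference. Fragments of all of them collapse onto the reference copies, so the number of repeats and the signal per repeat cannot be told apart.

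The peak lists held between 3463 and 4049 peaks each, with no read totals. The genome-wide background that the peak caller used, between 76.2 and 98.9 fragments per base, stands for depth. It was 98.9, 78.6, 85.4 and 92.7 in the YAC libraries, against 78.0, 83.3, 76.2 and 76.5 in the integrated ones. synHPRT1R YAC replicate 1 stood apart, with the fewest peaks, the highest background and differently formed peak names. Levels below are fragments over a summit divided by this background. Fold enrichment, as the authors deposited it, is relative to a local background of the same library. Elsewhere in the nuclear genome the median summit lay between 1.94 and 2.62 times the genome-wide background, and the highest between 5.23 and 7.64 times.

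The strongest peak of every library did not lie on the array. It was called on a separate piece of 25S sequence of 793 bp at chrXII:489753-490545, 283 bp beyond *RDN5-6*. The piece matches chrXII:451785-452577, which but for its first base lies in *RDN25-1*, the 25S part of *RDN37-1*, with 9 mismatches (98.9% identity). Its longest identical run of 526 bp spans bases 489917 to 490442. The sequences are from the plus strand of RefSeq R64, and capitals mark the bases that differ between the piece and *RDN25-1*. The first pair, from the left part of the piece, holds 6 of the mismatches:
25S piece, chrXII:489826-489926: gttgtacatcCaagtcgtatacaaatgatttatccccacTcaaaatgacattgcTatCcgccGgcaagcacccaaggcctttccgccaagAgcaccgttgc
RDN25-1, chrXII:451858-451958: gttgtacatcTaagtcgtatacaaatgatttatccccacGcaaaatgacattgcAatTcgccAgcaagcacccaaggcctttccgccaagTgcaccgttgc
The second pair lies around the summits of the strongest peak and has no mismatch:
25S piece, chrXII:490085-490144: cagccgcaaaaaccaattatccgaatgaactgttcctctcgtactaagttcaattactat
RDN25-1, chrXII:452117-452176: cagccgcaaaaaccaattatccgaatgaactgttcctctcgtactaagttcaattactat
The third pair crosses the right end of the identical run and of the peak:
25S piece, chrXII:490433-490497: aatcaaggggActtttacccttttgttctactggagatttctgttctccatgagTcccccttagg
RDN25-1, chrXII:452465-452529: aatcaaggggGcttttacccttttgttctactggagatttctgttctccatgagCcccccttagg

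The peak on this piece had nearly the same limits in all libraries. It began between bases 489759 and 489768, ended between 490481 and 490485, and was 715 to 725 bp wide. It began 6 to 15 bp after the left end of the piece and ended 60 to 64 bp before its right end. All 8 summits, between bases 490082 and 490183, fell inside the identical run. Read pairs that fall wholly within this run match the array equally well, so they cannot be assigned to the piece or to the array. How much of the signal at these summits came from the array was not tested. The peak is therefore not shown to be a separate site of the mark. Between 62.5% and 63.2% of the words of 75 bases in the peak occur again elsewhere in the reference. The peak overlapped 2 small annotated genes, YLR162W and *RRT15*, in 8 of 8 libraries, and no summit lay inside either.

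**Figure D1:**
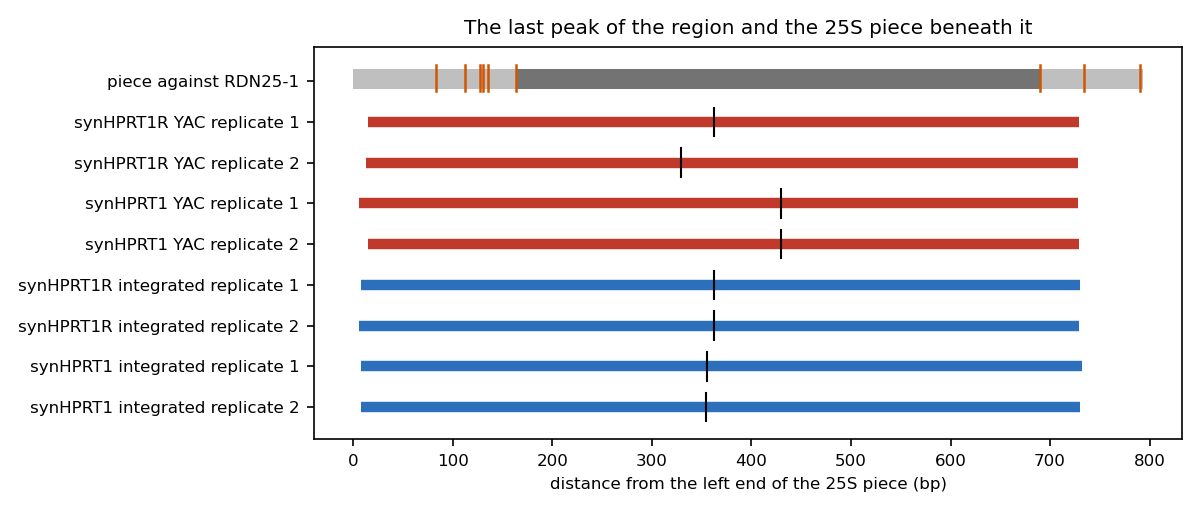
Extent of the last peak of the region in each library (coloured bars, red for YAC and blue for integrated strains) and its summit (black tick), by distance in bp from the left end of the 25S piece. The top row shows the piece in grey, its 526-bp run identical to *RDN25-1* in dark grey and the 9 mismatches as orange lines. All 8 summits lie within the identical run.

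Fold enrichment on the piece was 13.1 and 13.3 in synHPRT1R YAC libraries and 14.6 and 12.8 in synHPRT1 YAC libraries. It was 13.1 and 12.6 in synHPRT1R integrated and 12.2 and 11.7 in synHPRT1 integrated libraries. The highest fold elsewhere in the nuclear genome was between 3.85 and 5.61. Fragments over the summit numbered 2490, 2060, 2695 and 2484 in the YAC libraries, against 2355, 2302, 1959 and 1789 in the integrated ones. The groups overlapped, and synHPRT1 integrated replicate 2 was lowest on every one of these measures. By −log10 q the peak ranked 1 in all 8 libraries, at 1202 to 2051, with the next peak at 286 to 620. By fragments it ranked only 8 to 11, because the summits of the array held more. Its local background lay at 1.91 to 2.29 times the genome-wide value.

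On the array, from the left end of *RDN37-1* to the right end of *RDN5-2*, fragments were far more numerous and folds were low. The 70 array peaks held between 30.0 and 77.6 times the genome-wide background at their summits. Their folds were only 1.09 to 2.13, since the local background there was itself raised. The median array fold of a library was 1.29 to 1.81, below the median of 1.86 to 2.37 at nuclear peaks outside the region. With repeats collapsed and the IgG libraries not analysed, how much of the array level is H3K4me3 was not tested. The median local background at array summits was 37.8, 33.9, 41.0 and 39.0 times the genome-wide one in the YAC libraries, against 37.1, 32.7, 29.2 and 31.3 times in the integrated ones. At no nuclear summit outside the region did the local background pass 2.40 times. The 36 other peaks of the region lay to the right of the array. Over the array and the other peaks, between 93.9% and 95.1% of bases under peaks were repeated sequence.

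**Figure D2:**
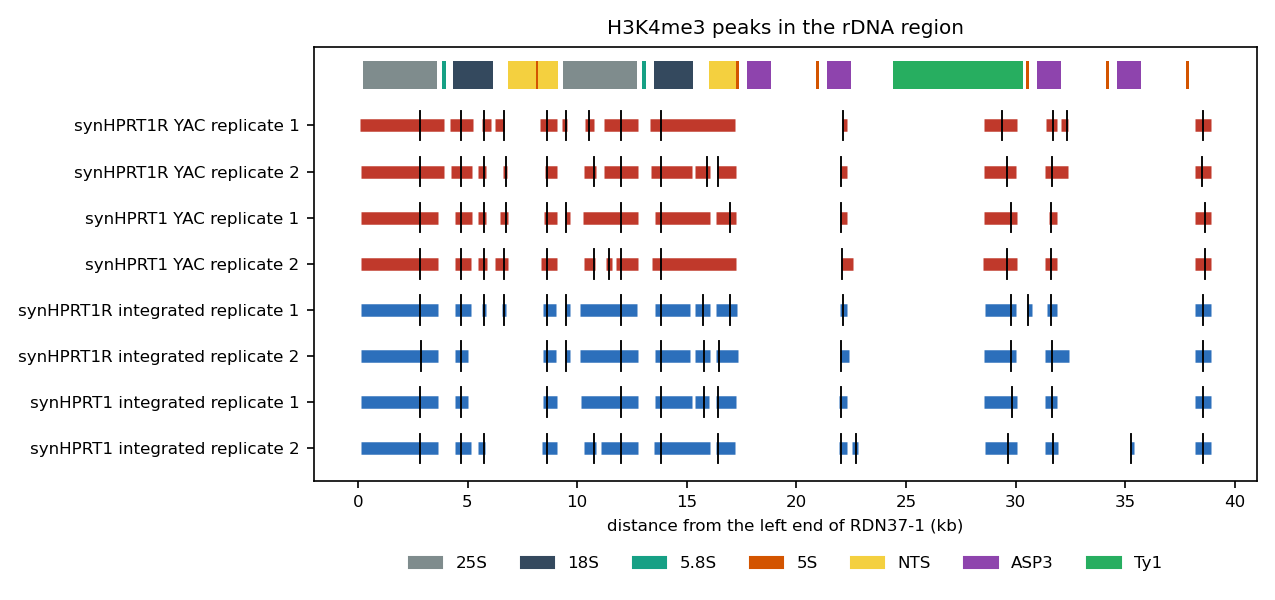
Peaks of each library along the region, by distance in kb from the left end of *RDN37-1*, with summits as black ticks and annotated genes and spacers on top (red, YAC; blue, integrated). The array, in the left part, carries 70 of the 106 peaks, and the last peak on the right has nearly the same limits in all 8 libraries.

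Per reference copy, the highest array summit was in NTS1 in 7 of 8 libraries and in *RDN18-2* in synHPRT1R YAC replicate 2. Reads of the genes are split over 2 copies. Summed over both, 18S held 90.3 to 147 and 25S 92.3 to 132 times the genome-wide background, more than NTS1 in every library. NTS1 carried a peak in 8 of 8 libraries, with summits within bases 460203 to 460214. It held 7130, 4701, 6625 and 6843 fragments in the YAC libraries (72.1, 59.8, 77.6 and 73.8 times the genome-wide background). It held 5429, 5295, 4761 and 4457 fragments in the integrated libraries (69.6, 63.6, 62.5 and 58.2 times). The groups overlapped, with synHPRT1R YAC replicate 2 among the integrated libraries. NTS1 has a single full copy in the reference, and only 11.4% to 15.4% of the words of 75 bases in its peak recur elsewhere. Its level therefore rests mostly on reads with 1 reference position, unlike those of the genes.

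The summits in the genes lay at nearly fixed bases. That of 25S was base 454423 of *RDN25-1* in 7 of 8 libraries, with 48.5, 52.7, 65.9 and 55.0 times the genome-wide background in the YAC libraries, against 60.2, 57.5, 54.0 and 46.2 times in the integrated ones. That of 18S was base 456260 of *RDN18-1* in 8 of 8 libraries, with 51.3, 60.8, 72.3 and 59.7 times in the YAC libraries, against 62.9, 60.6, 50.4 and 44.7 times in the integrated ones. Neither site separated the contexts. In the synHPRT1 strains both YAC libraries were above both integrated libraries at each site, and in the synHPRT1R strains both were below at the 25S summit. The sequences around the NTS1 summit and the 25S summit are shown on the plus strand. The NTS1 summit is the highest per reference copy in most libraries, and the 25S summit is in the same gene as the separate piece. Capitals mark the median summit of NTS1 and the commonest of 25S:
NTS1 summit, chrXII:460182-460242: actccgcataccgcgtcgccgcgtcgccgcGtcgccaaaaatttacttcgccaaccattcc
25S summit, chrXII:454393-454453: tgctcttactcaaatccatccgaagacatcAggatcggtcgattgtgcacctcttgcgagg

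**Figure D3:**
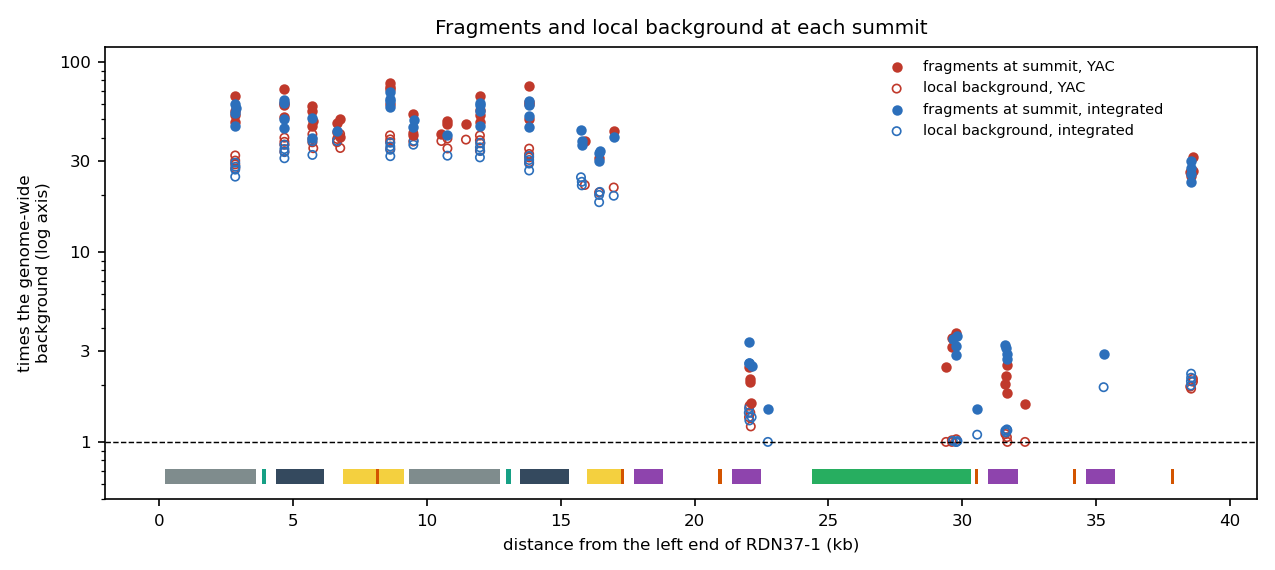
Fragments over each summit (filled) and local background (open) as multiples of the genome-wide background (dashed line at 1), on a log axis, by distance in kb from the left end of *RDN37-1* (red, YAC; blue, integrated). Coloured boxes at the bottom are the genes and spacers, with 25S in grey, 18S in dark blue, 5.8S in teal, 5S in orange, NTS in yellow, *ASP3* in purple and Ty1 in green. Array summits lie at 30.0 to 77.6 with backgrounds close below them, and the last peak combines 23.4 to 31.6 with a background near 2.

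The 2 repeat units of the reference lie 9137 bp apart, and the first 8218 bp of the second are identical to the first. Reads from them can therefore be placed on either. At matched summits the 2 copies held nearly equal numbers of fragments, with a ratio of first to second copy between 0.973 and 1.00 in 25S and between 0.970 and 1.02 in 18S. The folds nevertheless differed, because the local backgrounds did. In 25S the background of the first copy was 0.774 to 0.807 of that of the second, and the fold of the first copy was higher in 8 of 8 libraries. In 18S it was 1.14 to 1.17 times that of the second, and the fold was lower in 8 of 8. Summed over both copies, 25S held 92.3 to 132 and 18S held 90.3 to 147 times the genome-wide background.

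Which copy was called thus differed although the sequences do not. *RDN25-1* lay wholly under peaks in 8 of 8 libraries, and *RDN25-2* to between 49.8% and 84.0%. For 18S the order was the other way, with 33.4% to 72.9% of *RDN18-1* covered, against 87.7% to 100% of *RDN18-2*. The 5′ external spacer ETS1 was called in the first copy in 4 of 4 YAC libraries and 1 of 4 integrated libraries, and in the second copy in 8 of 8 (86.0% to 100%). A looser split, 3 or more of 4 libraries of a context against 1 or fewer of the other, was found at 3.79% of merged nuclear regions and at 1 of the 14 here. Folds at ETS1-1 were 1.13 to 1.21, and levels were 40.1 to 50.2 times the genome-wide background in YAC libraries and 43.3 times in the integrated library with the call. NTS2 next to *RDN5-1* had a peak in 0 of 8 libraries, and NTS2 next to *RDN5-2*, with the same 1243 bases, was 72.5% to 100% covered in 8 of 8. The 158 bp of 5.8S were reached in the first copy in both synHPRT1R YAC libraries and in no other, and in the second copy in none. At ETS1-1, next to the first NTS2, the local background was 35.3 to 41.8 times the genome-wide one, and at the summits in the second NTS2 18.3 to 21.9 times. Its part in these calls was not tested. The calls also differed over the match of the 25S piece, which was 100% covered in *RDN25-1* in 8 of 8 libraries and 0% to 31.5% covered in *RDN25-2*, with a peak in 4 of 8.

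**Figure D4:**
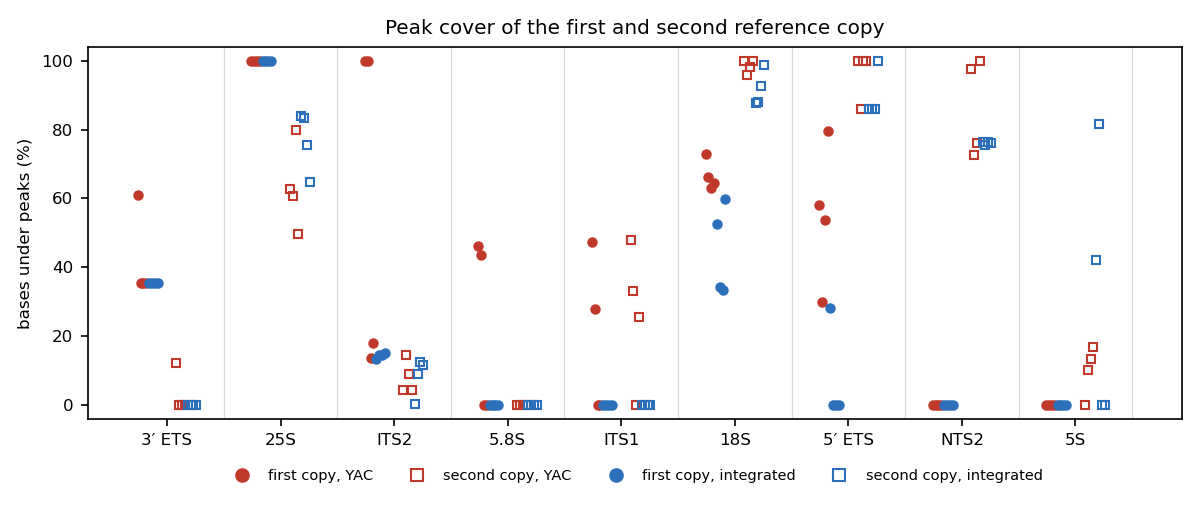
Percent of the bases of each part of the rDNA repeat under peaks, for the first (filled circles) and second (open squares) reference copy, 1 symbol per library (red, YAC; blue, integrated). The parts of a pair are identical except at the end of 5S. 25S is fully covered in the first copy and 18S and ETS1 more in the second, and NTS2 has peaks only in the second copy.

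*TAR1*, a small gene on the strand opposite to 25S, lay wholly under the peak of *RDN25-1* in 8 of 8 libraries. Without strand in the assay its signal cannot be separated from that of 25S. YLR154C-G, a small reading frame inside *RDN25-2*, was reached in 5 of 8.

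The 5S genes themselves had almost no peaks. No peak had its summit in *RDN5-1*, *RDN5-2*, *RDN5-3*, *RDN5-5* or *RDN5-6*, and *RDN5-1*, *RDN5-3*, *RDN5-5* and *RDN5-6* were touched by none in 8 libraries. The right edge of the NTS2 peak ran into *RDN5-2* in 5 of 8 libraries, covering up to 81.5% of it, in synHPRT1R integrated replicate 2. *RDN5-4* had 1 peak, in synHPRT1R integrated replicate 1, with 1.49 times the genome-wide background, a fold of 1.36 and −log10 q of 2.48. For the 5S genes the name of the region is therefore not matched by peaks. By contrast, *RDN37-1* and *RDN37-2* each had peaks in 8 of 8 libraries, but not every gene within them did. The shortest rRNA genes within them, *RDN58-1* and *RDN58-2* of 158 bp, were reached in 2 of 8 and 0 of 8 libraries and held no summit. A missing peak is not a missing mark. At the NTS1 summit, beside *RDN5-1*, the local background was 31.9 to 41.1 times the genome-wide one, and signal below such a background is not called. At summits right of the array, where *RDN5-3* to *RDN5-6* lie, it was only 1.00 to 2.29 times. Reads within the bases that all copies share can be placed on any of them. *RDN5-1* and *RDN5-6* are identical over 121 bases. The other 4 copies are annotated as 119 bases, of which the first 117 are the same. RNA polymerase III reads these genes in the direction shown, and the capital marks the base of *RDN5-2* to *RDN5-5* that differs:
RDN5-1 and RDN5-6: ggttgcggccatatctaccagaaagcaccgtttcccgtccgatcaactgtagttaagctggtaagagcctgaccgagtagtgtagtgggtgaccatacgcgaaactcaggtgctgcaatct
RDN5-2 to RDN5-5: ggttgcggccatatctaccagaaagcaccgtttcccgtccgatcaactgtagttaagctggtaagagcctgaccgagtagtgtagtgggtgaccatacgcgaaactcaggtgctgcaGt

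The stretch between the array and the 25S piece holds 4 identical copies of *ASP3*, a cell wall asparaginase, each next to a 5S gene. *ASP3-2* and *ASP3-3* had a peak in 8 of 8 libraries, 352 to 459 bp into the gene. *ASP3-4* had one only in synHPRT1 integrated replicate 2 and *ASP3-1* in none, so the calls again differ between copies of 1 sequence. At *ASP3-2* the level was 1.61, 2.47, 2.13 and 2.07 times the genome-wide background in the YAC libraries, against 2.51, 2.59, 3.36 and 2.60 times in the integrated ones. At *ASP3-3* it was 1.81, 2.54, 2.23 and 2.03 times in the YAC libraries, against 3.23, 3.11, 2.90 and 2.74 times in the integrated ones. The contexts did not overlap at either copy. Reads of identical copies can be placed on any of them, so these levels are not separate observations and cannot be given to 1 copy. The Ty1 retrotransposon YLRCTy1-1 carried the widest of these peaks in 8 of 8 libraries, near the start of its coding genes YLR157C-B and YLR157C-A. Its level was 2.47, 3.16, 2.86 and 3.19 times in synHPRT1R libraries, against 3.74, 3.52, 3.60 and 3.50 times in synHPRT1 libraries, with no overlap between the loci. Ty1 has many near-identical copies, so this level cannot be given to 1 element.

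These separations were read against the genome. Of the 14 merged regions of peaks, 9 had a peak in all 8 libraries, against 71.0% of the 3804 merged regions of the nuclear genome. Of these 9, the 2 *ASP3* regions, which share reads, were higher in all integrated than in all YAC libraries. That held for 30.7% of the 2701 nuclear regions with a level in all libraries. None of the 9 was higher in all YAC libraries, against 0.111% of the genome. For the loci, 1 of 9 (Ty1) was higher in all synHPRT1 libraries, against 0.703%, and 0 of 9 in all synHPRT1R libraries, against 0.0%. When the median summit of the nuclear genome was the divisor, a choice made after seeing the data, both *ASP3* regions overlapped. The Ty1 region then overlapped only barely, with a highest synHPRT1R level of 1.37017 and a lowest synHPRT1 level of 1.37. Its difference of synHPRT1R minus synHPRT1 was -0.24 on the log2 scale. The *ASP3* counts and the Ty1 count are near what the genome gives or rest on a single region.

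Summits of the nuclear regions called in all 8 libraries tended to be lower in YAC strains on this scale. The median difference of YAC minus integrated over the 2701 regions was -0.24 on the log2 scale, and -0.18 without synHPRT1R YAC replicate 1. With both loci pooled, the sites of the array and the 25S piece did not share it. The loci differed, however. The 25S piece differed by -0.17 within synHPRT1R strains and by 0.25 within synHPRT1 strains. At the *RDN25-1* summit, too, both synHPRT1R YAC libraries lay below both integrated ones, and both synHPRT1 YAC libraries above. Pooled over loci, the 25S summits differed by 0.03 (*RDN25-1*) and 0.01 (*RDN25-2*), 18S by 0.16 in both copies, NTS1 by 0.15 and the 25S piece by 0.04. The *ASP3-2* and *ASP3-3* differences were -0.42 and -0.49, and that of Ty1 -0.04. Divided by the median nuclear summit instead, the 6 rDNA sites differed by 0.23 to 0.38 and the median of all regions by -0.03. No test was made of the difference between rDNA and genome. The copies share reads and the sites lie in 1 array, so they are not separate observations.

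The region was then compared by 4 measures between contexts, with libraries as replicates and a Benjamini-Hochberg adjustment over 8 exact permutation tests. Peaks covered 37.6%, 35.3%, 34.7% and 35.4% of the region in YAC libraries, against 34.4%, 34.5%, 32.7% and 34.6% in integrated libraries. All YAC libraries were above all integrated ones, at 35.8% ± 1.25 in YAC and 34.0% ± 0.903 in integrated libraries (SD, n = 4 each). The difference of 1.74 percentage points had an exact permutation p of 0.0286, two-sided, the smallest that 4 against 4 libraries allow, and an adjusted p of 0.229. It did not pass after adjustment. It was 2.02 points within synHPRT1R and 1.46 within synHPRT1 strains, and 1.14 points without synHPRT1R YAC replicate 1 (exact permutation p = 0.0571). The p was also 0.0571 without any 1 of the 4 integrated libraries and stayed at 0.0286 without any 1 of the other 3 YAC libraries. On the array alone it was 5.17 points (exact permutation p = 0.0571). Depth moved with context, as the backgrounds above show, and its part in the cover was not tested.

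The local background of the array, as log2 of its ratio to the genome-wide background, averaged 5.24 ± 0.12 in YAC and 5.02 ± 0.15 in integrated libraries (SD, n = 4 each). The difference of 0.22 was larger than the spread within groups (SD 0.10) and did not pass the test (exact permutation p = 0.0571, adjusted p = 0.229). It was 0.04 within synHPRT1R and 0.40 within synHPRT1 strains. The median was over the array summits called in each library, and these differed between contexts. ETS1-1, with a local background of 35.3 to 41.8 times, held a summit in 4 YAC libraries and 1 integrated library. The second NTS2, at 18.3 to 21.9 times, held one in 2 YAC and 4 integrated libraries. The part of these calls in the difference was not tested. Read at the NTS1 summit alone, chosen after seeing the data, the difference was 0.13 (exact permutation p = 0.114). The summit of the strongest peak by −log10 q, that on the 25S piece, averaged 4.77 ± 0.14 on the log2 scale in YAC and 4.73 ± 0.16 in integrated libraries (SD, n = 4 each). The difference was 0.04 (exact permutation p = 0.771, adjusted p = 0.886), with -0.17 within synHPRT1R and 0.25 within synHPRT1 strains. At the summit with the most fragments in each library, an alternative chosen after seeing the data, it was 0.16 (exact permutation p = 0.114).

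**Figure D5:**
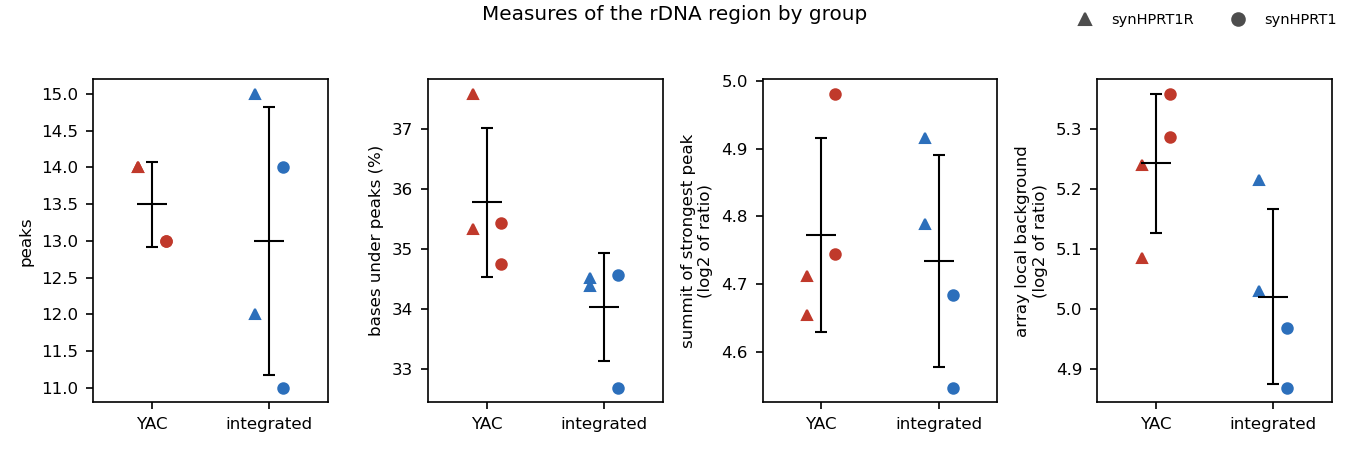
The 4 measures of the region by context, YAC (red) and integrated (blue), with triangles for synHPRT1R and circles for synHPRT1 libraries; black bars are the mean and SD of 4 libraries, and equal counts of peaks lie on top of each other. Axes do not start at 0. The share of bases under peaks is the one measure without overlap, at 34.7% to 37.6% in YAC and 32.7% to 34.6% in integrated libraries.

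The number of peaks in the region was 14, 14, 13 and 13 in the YAC libraries, against 15, 12, 11 and 14 in the integrated ones. The mean was 13.5 ± 0.577 in YAC and 13.0 ± 1.83 in integrated libraries (SD, n = 4 each; exact permutation p = 0.800, adjusted p = 0.886). Peaks in all 4 libraries of a single context, with the other context free of them, were found at 0 of the 14 rDNA regions, against 0.762% of the merged nuclear regions. Just outside the right limit such a region exists, at the start of *MAS1*, a subunit of the mitochondrial processing protease. It had no peak in the YAC libraries and a peak in the integrated ones at 2.79, 2.79, 3.24 and 3.16 times the genome-wide background, 1015 bp or more beyond the limit. These calls were weak, with folds of 1.30, 1.35, 1.64 and 1.67 and −log10 q of 3.38 to 12.3. The local background there was already 1.89 to 2.14 times the genome-wide one. The *MAS1* region is 1 of 29 such regions of the genome and was not among the members. At the left limit the first peak inside, on *RDN25-1*, reached 46.2 to 65.9 times, and the first outside lay 4820 to 7950 bp away at 1.51 to 2.13 times. At the right limit the last inside was that on the 25S piece.

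Between the loci no measure passed. Peak number averaged 13.8 ± 1.26 in synHPRT1R and 12.8 ± 1.26 in synHPRT1 libraries (SD, n = 4 each; exact permutation p = 0.429, adjusted p = 0.886). The share of bases under peaks was 35.5% ± 1.48 in synHPRT1R and 34.4% ± 1.18 in synHPRT1 libraries (exact permutation p = 0.457, adjusted p = 0.886). The summit on the 25S piece differed by 0.03 (exact permutation p = 0.800) and the array background by 0.02 on the log2 scale (exact permutation p = 0.886), each with an adjusted p of 0.886. At the summit with the most fragments the difference was -0.022 (exact permutation p = 0.800). By the same criterion 0 rDNA regions separated the loci, and 0 of 3804 nuclear regions (0.0%) did. With 3 or more of 4 against 1 or fewer, 1 of the 14 (the left end of *RDN25-2*) separated the loci, against 1.31% of nuclear regions.

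The genes that build and read the rDNA were taken from a fixed list of 51, and a gene counted with a peak from 200 bp before to 800 bp after its start. A neighbouring gene can supply such a peak. Of the 51 genes, 46 had one in all 8 libraries, against 68.0% of nuclear protein-coding genes. All 8 genes of COMPASS, which lays down the mark itself, were among them, as were 13 of 14 subunits of RNA polymerase I, 11 of 12 of its factors, 7 of 9 factors of the 5S genes and 7 of 8 genes of silencing and the fork barrier. *TFC3*, a subunit of the factor TFIIIC that binds within genes read by RNA polymerase III, had no peak in any library. *TFC8*, another TFIIIC subunit, had one in 1 of 4 YAC and 1 of 4 integrated libraries. *RRN11*, of the core factor of RNA polymerase I, had one in 1 of 4 YAC and 2 of 4 integrated libraries. *RPC10*, a subunit common to all nuclear RNA polymerases, and *TOF2*, a nucleolar protein, each lacked it in 1 YAC library. No gene of the list separated the contexts.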

How the data were processed

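H3K4me3 was mapped by CUT&RUN, which sequences DNA released by a nuclease bound to the antibody, in 8 libraries of 4 groups. According to the methods and, per the labels, the processing notes of the submitters, read pairs were trimmed, aligned to sacCer3 plus the synthetic locus with Bowtie2 2.2.9, and peaks were called per library with MACS2 2.1.0, keeping duplicates and with no control named. An aligner places a read that matches several copies on 1 of them. The deposited values are fold enrichment (a ratio to the local background), −log10 p and −log10 q, a score made from the −log10 q by the authors' caller, and positions in other columns, also as deposited by the authors.

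Positions are 1-based. Fragments and local background at each summit were solved from fold and −log10 p, returning the deposited p to a median misfit of at most 0.000116. In 1 library, 1 peak exceeded a misfit of 0.02. Its fragments and background were left out, and the peak stayed in the counts of peaks. The commonest nuclear background of a library is its genome-wide background. The lists hold no read totals, so counting error was not propagated and precision comes from the spread between libraries. These are separate samples of a strain, and p-values measure only that spread, which may be technical. Repeated sequence was found with words of 75 bases and blastn 2.17.0 on the RefSeq R64 genome, which fits all peak positions. Tests were exact permutation tests of the difference of means in Python 3.11.15 with scipy 1.17.1, adjusted by Benjamini-Hochberg over 8, called below 0.05. Functions were tested on simulated data. Named genes were the rRNA members, the features of the region reached by a peak, the neighbouring genes, and listed genes whose calls were absent or differed between groups. Members and lists were chosen with earlier results of these data known.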

Additional observations from a re-analysis of the deposited data

Results flagged for a closer look

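The share of the region under peaks in synHPRT1 integrated replicate 1, 32.7%, lay far from the other 3 integrated libraries. By the same check chance picks out about 1 in 20 groups, and 16 groups were looked at. The summit of the strongest peak by −log10 q, on the 25S piece, moved in opposite ways in the strains. In synHPRT1R both YAC libraries were below both integrated ones, with a difference of -0.17 on the log2 scale, and in synHPRT1 both were above, with a difference of 0.25. The difference between the loci was not tested.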

How the results depend on the processing

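The only difference whose exact permutation p was under 0.05 before adjustment, the share under peaks in YAC minus integrated strains, kept its direction in each alternative and lost that p in several. With replicate numbers as a block, or exchanging libraries within loci, it stayed at 1.74 points (exact permutation p = 0.0556, the smallest either allows). It was 0.94 points when a −log10 q of 10 was required (exact permutation p = 0.114) and 5.17 on the array alone. Leaving out each library gave 1.14 to 2.09 points, with p = 0.0571 by the exact permutation test without synHPRT1R YAC replicate 1 or any 1 integrated library. The block changed no other call. Deviations of same-numbered libraries had correlations of -0.22 to 0.05 between groups over 2701 regions. With 2 libraries per group, these cannot show whether same-numbered libraries share more than a number. Peak number in YAC minus integrated strains was 0.5, with -0.17 to 1.17 when each library was left out and -0.25 at a −log10 q of 10 or more. In synHPRT1R minus synHPRT1 strains it was 1, and -1 with peaks within 500 bp merged. For the summit on the 25S piece, leaving out each library gave -0.030 to 0.100 between contexts and -0.035 to 0.109 between loci, and between loci the NTS1 summit in its place gave -0.032 and the summit with the most fragments -0.022, alternatives chosen after seeing the data. For the array background between loci the range was -0.062 to 0.101. With at least 3 of 4 against at most 1 of 4 libraries, 1 rDNA region separated the contexts (ETS1-1) and 1 the loci (the left end of *RDN25-2*), against 3.79% and 1.31% of nuclear regions and 0 rDNA regions by the stricter criterion. Without synHPRT1R YAC replicate 1, added after seeing the data, both counts stayed at 0. Repeated words made up 94.4% of bases under peaks with 75 bases and 95.0% with 36. In all, 13 alternatives reversed a difference, none of which had passed the test, and the causes were not tested. Depth and local background limit what is said of sites without a peak: H3K4me3 below the local background was not detectable there. Among the 5S genes, a strongly raised local background was seen only beside *RDN5-1* and *RDN5-2*.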
